A study of Mus musculus with 4 samples.

Results

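Expression of the neutrophil chemokine genes *CXCL-1*, *CXCL-2* and *CXCL-5* and of the cytokine gene *IL-17β* was examined in whole lungs of mice that inhaled recombinant mouse S100A8, bore Lewis lung carcinoma, or both. These 4 genes were taken by name from an RT-qPCR panel of 98 genes, and each was located among 100 numbered assays by its pattern of fold changes. All 4 are among the 39 panel genes classed as immune regulation. They carry the mouse symbols Cxcl1, Cxcl2, Cxcl5 and Il17b in the RefSeq annotation, a match made by name because primer sequences were not used here. Whether the *IL-17β* assay reads Il17b or another interleukin-17 gene was therefore not checked, and every *IL-17β* value below is that of the assay so named. The mice were female C57BL/6J animals aged 6 to 8 weeks and formed 4 groups. HBSS+vehicle mice received a cell-free injection into the lung and intranasal Hanks' balanced salt solution (HBSS), and S100A8+vehicle mice received the same injection and 10 µg of intranasal S100A8 per dose. HBSS+LLC and S100A8+LLC mice were injected in the lung with LLC cells, a single established mouse carcinoma line, before the same 2 inhaled treatments. Mice inhaled a dose on Day 3, Day 6 and Day 9, and lungs were taken on Day 10. The injections of all groups contained Matrigel, a basement membrane gel, and the S100A8 protein was made in bacteria and purified with precautions against endotoxin. The 4 to 5 mice of a group were averaged before deposit, so every value below is 1 number per gene and group, without an SD and without any test between groups.

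CXCL-1, CXCL-2 and CXCL-5 are secreted CXC chemokines that attract neutrophils through the receptor CXCR2, and they also draw in neutrophil-like myeloid-derived suppressor cells. Airway epithelium, stromal cells and macrophages make them when interleukin-1, tumor necrosis factor or microbial products activate NF-κB. IL-17B, the protein that the name *IL-17β* is taken to mean here, is a member of the interleukin-17 family that signals through the receptor IL-17RB. It is distinct from IL-17A, the T cell cytokine best known for inducing these chemokines in the lung. CXCR2, IL-17RB and IL-17A were not among the panel names.

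In the order of the mouse annotation (GRCm38.p6), Cxcl5, Ppbp, Pf4, Cxcl3, Cxcl15, Cxcl1 and Cxcl2 are 7 consecutive protein-coding genes of chromosome 5, so that Cxcl1 and Cxcl2 are neighbors. The RefSeq promoter table of this build held 2 of the 4 genes, Cxcl1 and Cxcl2. Their 250 bases before the start site are shown because the pair lie side by side and share a motif of NF-κB. Capitals mark GGAATTTCC, the letters searched on both strands, where the other strand reads GGAAATTCC. No other motif was searched. The Cxcl1 sequence is chr5:90890995-90891244 and the Cxcl2 sequence chr5:90903649-90903898, both on the plus strand.
Cxcl1: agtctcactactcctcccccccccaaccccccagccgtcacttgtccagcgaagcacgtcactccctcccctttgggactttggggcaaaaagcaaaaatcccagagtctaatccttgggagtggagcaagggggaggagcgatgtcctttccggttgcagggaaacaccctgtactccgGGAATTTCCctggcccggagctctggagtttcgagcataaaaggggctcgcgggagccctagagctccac
Cxcl2: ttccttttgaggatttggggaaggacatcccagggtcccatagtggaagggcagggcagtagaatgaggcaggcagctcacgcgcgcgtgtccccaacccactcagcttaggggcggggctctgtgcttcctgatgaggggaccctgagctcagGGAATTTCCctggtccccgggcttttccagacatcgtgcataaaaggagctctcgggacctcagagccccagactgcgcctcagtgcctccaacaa

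The motif began 70 bases before the start site in Cxcl1 and 96 bases before it in Cxcl2, once in each. It lay inside gggaatttccctgg, the longest run shared by both sequences, at 14 bases. Over the RefSeq promoters of mouse, 94 of 32851 (0.286%) held these letters in the same window. Of 13 companion genes described below that have an entry, 2 held the motif, Cxcl10 and Icam1, and 11 did not. The letters were chosen with these sequences in view, and a match describes the sequence and not the binding of a factor.

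A transcript is detected at its threshold cycle (Ct), and a lower Ct stands for more template. Without LLC, *CXCL-1* had a mean Ct of 24.3 after HBSS and 26.0 after S100A8, and with LLC it had 25.3 after HBSS and 27.2 after S100A8. In the same order of groups, *CXCL-2* had 23.4, 24.4, 23.8 and 25.8. *CXCL-5* had 23.8, 25.9, 25.6 and 26.5. All 3 chemokines thus had their lowest Ct in HBSS+vehicle and their highest in S100A8+LLC, before any normalization. *IL-17β* behaved otherwise, with 30.4, 35.8, 27.2 and 28.2. It was detected earliest in the LLC-bearing groups and latest in S100A8+vehicle, where its mean lay 2.22 cycles under the cut off of 38 cycles. Over the 4 groups, Ct spanned 8.62 cycles for *IL-17β* and 2.39 to 2.89 cycles for the chemokines. Whole lung was measured, so fewer cells expressing a gene and less mRNA per cell cannot be told apart.

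**Figure D1:**
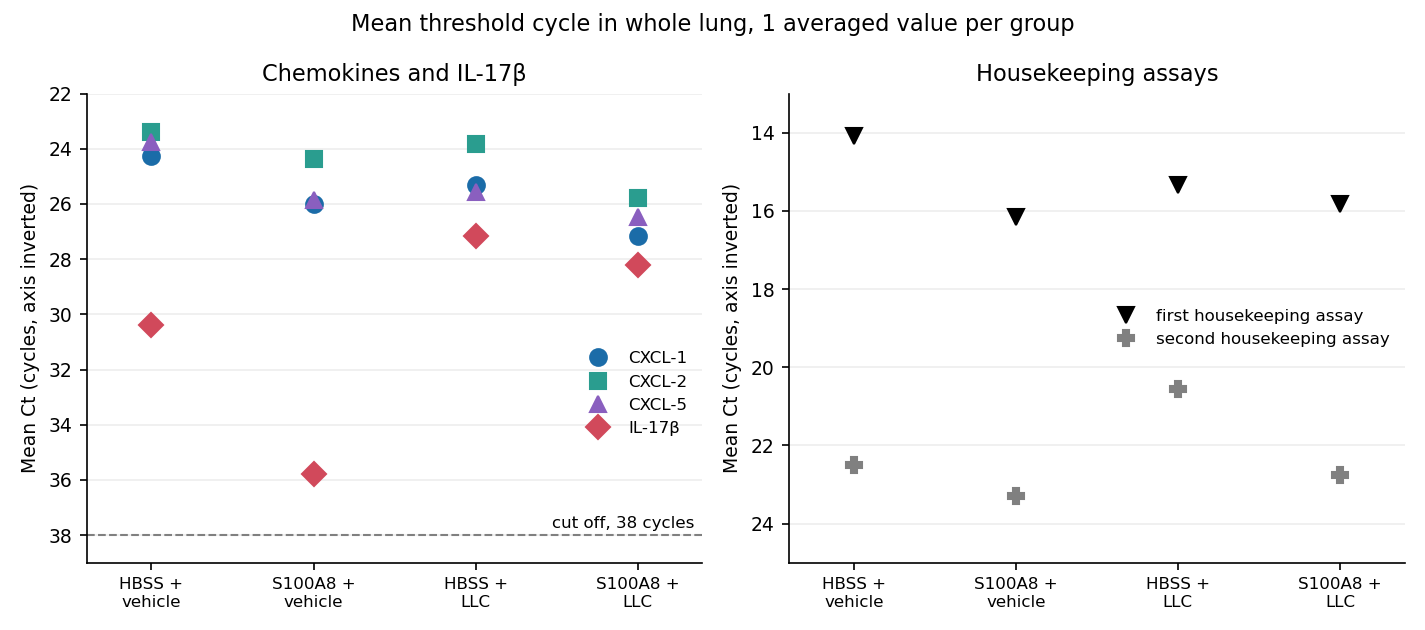
Mean Ct in cycles (inverted axis, so that higher points mean more template) of the 4 genes and of both housekeeping assays in each of the 4 groups, 1 averaged value per point and no error bars. *IL-17β* ranges from 27.2 to 35.8 cycles while the chemokines stay between 23.4 and 27.2.

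The panel has 2 housekeeping assays, for β-actin and β2-microglobulin, which the deposited numbers do not tell apart. In the order of groups used above, the first had a Ct of 14.1, 16.2, 15.4 and 15.8. The values of the second were 22.5, 23.3, 20.6 and 22.8. Fold changes below are normalized to the mean Ct of both, and for the 4 genes each is given too with either assay as the sole reference, or with the panel median over all 98 genes, where these move it across 2-fold or turn its direction. A gene is called higher or lower when it differs by more than 2-fold, a threshold chosen for this description. The rank of a gene within a comparison does not depend on this reference. Most of the comparisons share a group, HBSS+vehicle or S100A8+LLC in 3 comparisons each, so their values are given side by side. The 2 comparisons of S100A8 with HBSS, without and with LLC, share no group, and the difference between them is given below.

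In lungs without LLC, S100A8 inhalation went with a large difference in *IL-17β* and small ones in the chemokines. After S100A8, *IL-17β* was 15.6-fold lower than in HBSS+vehicle, rank 3 from the bottom of 97 genes with a value. Normalized to the first housekeeping assay it was 9.99-fold lower and 24.3-fold lower with the second, and 9.06-fold lower when Ct values were capped at 35 cycles. *CXCL-1* was 1.25-fold lower, and 1.25-fold higher with the first assay alone. *CXCL-2* was 1.39-fold higher, which became 2.17-fold higher with the first assay alone and 1.12-fold lower with the second. *CXCL-5* was 1.59-fold lower, which became 2.48-fold lower with the second assay alone and 2.15-fold lower with the panel median. Of the 4 genes, 1 was called lower and 0 higher, where 17.5% of all genes were called lower and 27.8% higher.

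In LLC-bearing lungs without S100A8, *IL-17β* was 7.36-fold higher than in HBSS+vehicle, and ranked 13 of 98 from the top. It was higher under each reference, between 2.43-fold with the second housekeeping assay alone and 22.3-fold with the first. *CXCL-5* was 4.47-fold lower and *CXCL-1* 2.60-fold lower, at ranks 10 and 17 from the bottom. *CXCL-2* was 1.69-fold lower. These chemokine values rest on the reference, since the Ct of the first housekeeping assay differed by 1.26 cycles and that of the second by -1.94. With the first assay alone, *CXCL-1* was 1.16-fold higher, *CXCL-2* 1.79-fold higher and *CXCL-5* 1.47-fold lower. With the second assay alone, they were 7.89-fold, 5.13-fold and 13.5-fold lower. By the mean of both assays, 2 of the 4 genes were called lower and 1 higher, where 21.4% of all genes were called lower and 26.5% higher.

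Lungs with both S100A8 and LLC showed lower chemokine mRNA beside higher *IL-17β* mRNA. Relative to HBSS+vehicle, *CXCL-1* was 3.73-fold lower, *CXCL-5* 3.36-fold lower and *CXCL-2* 2.64-fold lower. They stood at ranks 5, 8 and 11 from the bottom of 98 genes. All 3 were lower under each of the 4 references. With the first housekeeping assay alone, which gave the smallest differences, *CXCL-1* was 2.23-fold, *CXCL-5* 2.01-fold and *CXCL-2* 1.58-fold lower, so that *CXCL-2* was no longer called. *IL-17β* was 8.82-fold higher, between 5.28-fold and 14.7-fold over the references, and ranked 9 from the top. The 3 genes called lower and the 1 called higher stand beside 18.4% and 22.4% of all genes.

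**Figure D2:**
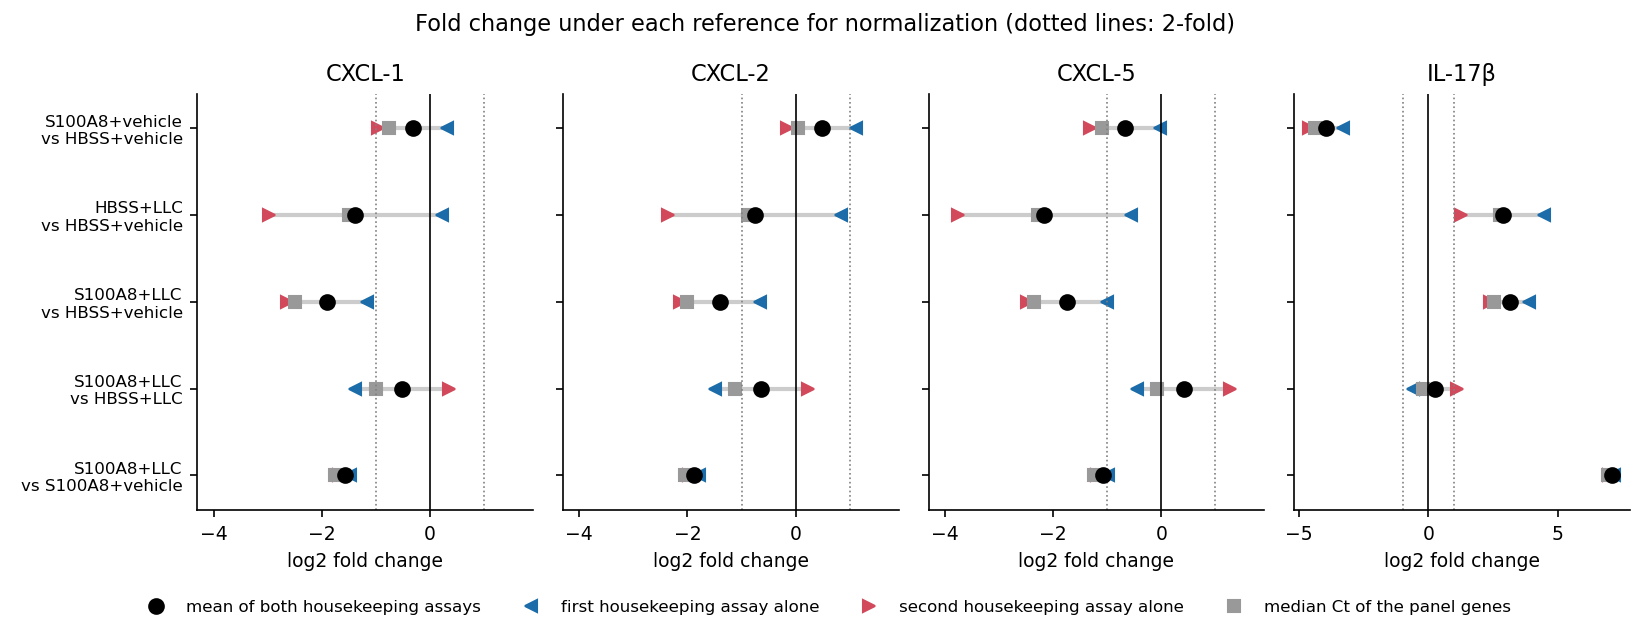
Log2 fold change of each gene in the 5 comparisons, with the mean of both housekeeping assays (black circles), either assay alone (triangles) or the panel median (squares) as reference; grey bars join the values and the *IL-17β* axis is wider than the others. The bars are long for HBSS+LLC vs HBSS+vehicle and short for S100A8+LLC vs S100A8+vehicle.

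Within LLC-bearing lungs, the differences with S100A8 were under 2-fold for each of these genes. Relative to HBSS+LLC, *CXCL-1* was 1.43-fold lower and *CXCL-2* 1.56-fold lower after S100A8, while *CXCL-5* was 1.33-fold higher and *IL-17β* 1.20-fold higher. None of the 4 genes was called in either direction, where 15.3% of all genes were called lower and 11.2% higher. Each of these 4 directions depended on the reference. With the first housekeeping assay alone, *CXCL-1* was 2.60-fold and *CXCL-2* 2.83-fold lower, *CXCL-5* was 1.37-fold lower and *IL-17β* 1.52-fold lower. With the second assay alone, all 4 were higher, by 1.27-fold, 1.16-fold, 2.41-fold and 2.17-fold in that order. With the panel median, *CXCL-1* and *CXCL-2* were 2.01-fold and 2.18-fold lower, and *CXCL-5* and *IL-17β* were 1.05-fold and 1.17-fold lower.

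Among S100A8-treated mice, the comparison of lungs with and without LLC was the least affected by normalization, as both housekeeping assays moved alike, by -0.35 and -0.55 cycles. *CXCL-2* was 3.68-fold lower with LLC, *CXCL-1* 2.99-fold lower and *CXCL-5* 2.11-fold lower. The range over references was 3.43-fold to 4.14-fold for *CXCL-2*, 2.79-fold to 3.36-fold for *CXCL-1* and 1.97-fold to 2.38-fold for *CXCL-5*. *IL-17β* was 137-fold higher, between 122-fold and 147-fold over the references. This value starts from the late mean Ct of 35.8 in S100A8+vehicle, and became 79.9-fold with Ct values capped at 35 cycles. *CXCL-2* ranked 3, *CXCL-1* ranked 8 and *CXCL-5* ranked 26 from the bottom, and *IL-17β* ranked 3 from the top. The 3 genes called lower and the 1 called higher stand beside 29.6% and 12.2% of all genes.

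**Figure D3:**
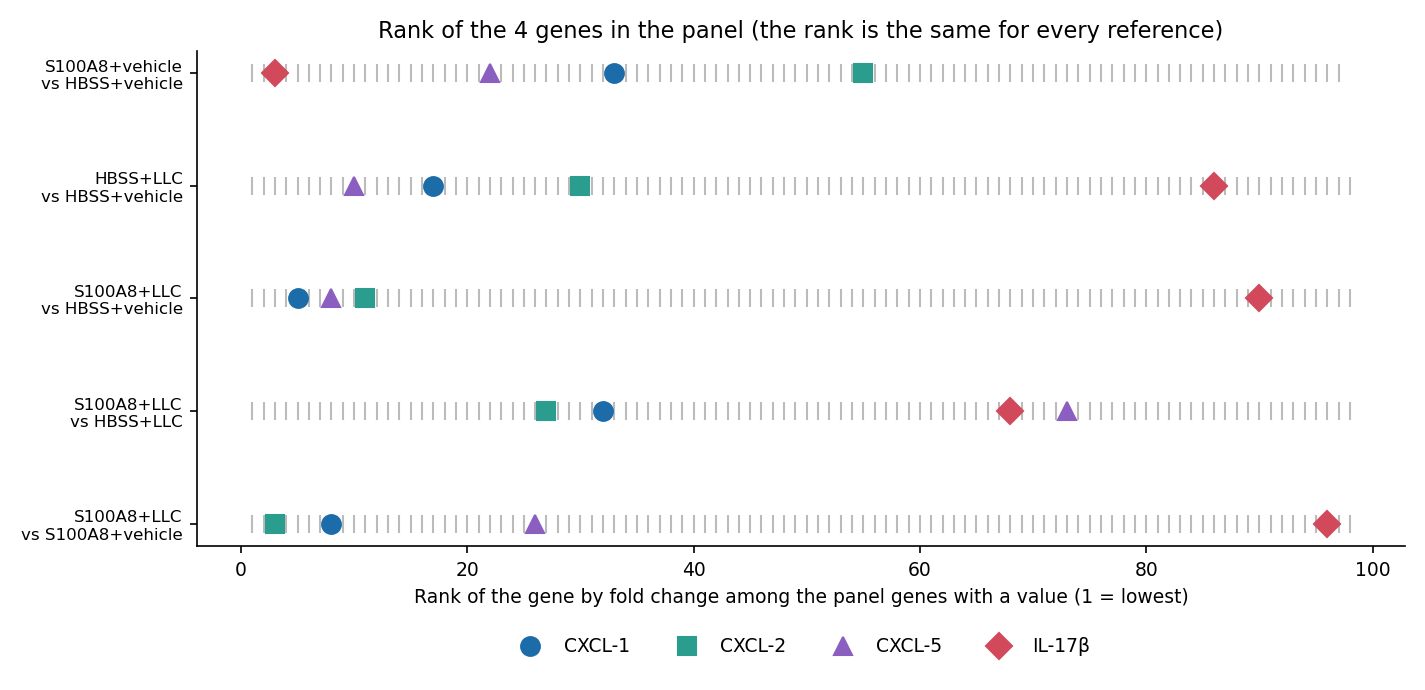
Rank of each panel gene by fold change in the 5 comparisons (1 is the lowest; 97 or 98 genes with a value), with grey ticks for the other genes. In S100A8+LLC vs HBSS+vehicle the 3 chemokines lie at ranks 5, 8 and 11 from the bottom and *IL-17β* at rank 90.

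How the response to S100A8 differed between lungs with and without LLC can be stated only as a difference of 1 averaged value per group, without a test. For *IL-17β*, the S100A8 effect was -3.96 on the log2 scale without LLC and 0.26 with LLC, a difference of 4.22. That difference lay between 2.72 and 5.72 over the references and was above 0 under each. For *CXCL-1*, it was -0.20, between -1.70 and 1.30. For *CXCL-2* it was -1.12, between -2.62 and 0.38, and for *CXCL-5* it was 1.08, between -0.42 and 2.58. The sign of this difference therefore turned with the reference for each of the 3 chemokines.

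Differences between the genes themselves need no reference, because it cancels. Against HBSS+vehicle, the Ct of the 3 chemokines moved by amounts that differed by at most 1.15 cycles in S100A8+vehicle, 1.40 cycles in HBSS+LLC and 0.50 cycles in S100A8+LLC. The log2 change of *IL-17β* against HBSS+vehicle, less the mean change of the chemokines, was -3.79 in S100A8+vehicle. The ratio of *IL-17β* to the chemokine mean was 19.9 times its HBSS+vehicle value in HBSS+LLC. In S100A8+LLC this ratio was 28.3 times its HBSS+vehicle value. The level of *IL-17β* itself stayed under that of each chemokine in both groups, with a later Ct of 27.2 and 28.2 cycles. Between S100A8+LLC and HBSS+LLC, the ratio of *IL-17β* to the chemokines differed by 1.42-fold.

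Likeness of pattern was measured as the root mean square difference of log2 level over the 4 groups, after each gene was centered on its own mean, among 92 other genes that were below 38 cycles in every group. *MT1*, a metallothionein that binds zinc and copper, was nearest to *CXCL-1*, at 0.23, and to *CXCL-5*, at 0.18. *CDH13*, the gene of T-cadherin, was second for *CXCL-1*, at 0.29, followed by *CXCL-2*, at 0.30. For *CXCL-2*, the nearest were *CDH13* at 0.15, the myeloid growth factor gene *GM-CSF* at 0.19 and the mucin gene *MUC1* at 0.20. For *CXCL-5*, the transcription factor gene *IRF-4* at 0.30 and the assay named *CCL-13* at 0.31 followed *MT1*. The name *CCL-13* has no mouse RefSeq symbol, so what this assay reads is not known. No panel gene came near *IL-17β*, whose closest were the hypoxia factor genes *HIF-1α* at 2.15 and *HIF-1β* at 2.17, and *PTGS2* at 2.16. *HIF-1α* and *HIF-1β* were measured late, at a mean Ct of 31.15 to 36.35 and of 31.48 to 37.41. The panel also lists *COX-2*, another name of *PTGS2*, and the entries differed. In S100A8+vehicle against HBSS+vehicle they were at -0.28 and -1.75 on the log2 scale. With 4 points per gene these distances are a description only.

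The 9 other chemokines of the panel give the wider picture, and like the genes of the following lists they depended strongly on the reference. A changed reference moves all genes of a comparison alike, so counts with another reference, added after the data were seen, stand beside the share of all genes called with it. In S100A8+LLC against HBSS+vehicle, their median log2 fold change was -0.69, beside -1.75 for the 3 neutrophil chemokines and -0.22 for all 98 genes. It became 0.05 with the first assay alone, where *CXCL-1*, *CXCL-2* and *CXCL-5* were at -1.16, -0.66 and -1.01. Of the 9, 2 were called lower, where 18.4% of all genes were. They were *CCL-2*, which draws monocytes, at 2.81-fold and *CCL-13*, whose mouse target is not known, at 2.10-fold. None of the 9 was called lower with the first assay alone, where 8.16% of all genes were. With the second assay and with the panel median 8 were, beside 48.0% and 41.8% of all genes. In HBSS+LLC, *CCL-2* was 4.92-fold lower, but 1.62-fold with the first assay, and *CCL-13* was 2.66-fold lower, but 1.14-fold higher with the first assay. *CXCL-12*, a chemokine of stromal cells, was 3.41-fold higher there, but 1.13-fold with the second assay.

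In S100A8+vehicle, *CXCL-12* was 3.76-fold higher than in HBSS+vehicle and was called under each of the 4 references. *CCL-2* was 2.77-fold lower and the eosinophil chemokine *CCL-11* 2.48-fold lower there, but 1.78-fold and 1.59-fold with the first assay. Between S100A8+LLC and HBSS+LLC none of the 9 was called, where 15.3% of all genes were lower and 11.2% higher. There 3 were lower with the first assay and with the panel median, beside 44.9% and 32.7% of all genes, and 3 were higher with the second assay, beside 39.8%. Against S100A8+vehicle, 3 were called lower in S100A8+LLC, where 29.6% of all genes were, and *CXCL-10*, at 2.85-fold, and *CCL-3*, at 2.45-fold, were called under each reference. *CXCL-12* was 2.07-fold lower, and 1.93-fold with the first assay.

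Genes known to induce these chemokines were listed as *IL-1β*, *TNF-α*, *IL-6* and the transcription factor gene *NF-κB*. In S100A8+LLC, 3 of the 4 were called lower than in HBSS+vehicle, namely *IL-1β* at 3.71-fold, *TNF-α* at 2.58-fold and *IL-6* at 2.35-fold, beside the 18.4% of all genes. With the first housekeeping assay alone only *IL-1β* was called, at 2.22-fold lower, while *TNF-α* was 1.55-fold and *IL-6* 1.40-fold lower, where 8.16% of all genes were called. With the second assay and with the panel median all 4 were called, beside 48.0% and 41.8% of all genes. *NF-κB* was 1.89-fold lower with both assays. The median of the list was -1.30 on the log2 scale, between -2.04 and -0.56 over the references.

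In HBSS+LLC, *TNF-α* was called, at 2.75-fold lower, but was 1.10-fold higher with the first assay. With the second assay all 4 inducers were called lower there, beside 63.3% of all genes. In S100A8+vehicle, *IL-6* was called, at 3.07-fold lower, and was 1.97-fold lower with the first assay. Against HBSS+LLC, *IL-1β* was 2.04-fold lower in S100A8+LLC, and 1.13-fold with the second assay. With the first assay 3 of the 4 were called lower there, *IL-1β* at 3.71-fold, *IL-6* at 2.75-fold and *NF-κB* at 2.16-fold, where 44.9% of all genes were. With the panel median 2 were, beside 32.7% of all genes. Against S100A8+vehicle, *TNF-α* was 3.18-fold and *IL-1β* 2.36-fold lower, and both were called under each reference.

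The list called the interleukin-17 axis held *IL-23*, *IL-6*, *TGF-β1* and *STAT3*. Whether these genes act on *IL-17β*, taken here to be distinct from IL-17A, was not tested. In S100A8+vehicle, where *IL-17β* was lowest, *TGF-β1*, a cytokine that shapes T cell differentiation, was 7.73-fold higher than in HBSS+vehicle and was called under each reference. *IL-6* was 3.07-fold and *IL-23* 2.07-fold lower there, but 1.97-fold and 1.33-fold with the first assay. In HBSS+LLC, where *IL-17β* was 7.36-fold higher, *TGF-β1* was 3.20-fold higher, but 1.06-fold with the second assay. *IL-23* was 3.03-fold lower there and *STAT3* 1.83-fold lower, but with the first assay *IL-23* did not differ and *STAT3* was 1.66-fold higher. In S100A8+LLC, *TGF-β1* was 3.58-fold higher, between 2.14-fold and 5.98-fold over the references. *IL-6* was 2.35-fold lower there, and 1.40-fold with the first assay.

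*IL-23* was itself measured late, at a mean Ct of 30.7 to 33.2. Between S100A8+LLC and HBSS+LLC none of these 4 genes was called by the mean of both assays, beside 15.3% of all genes lower and 11.2% higher. With the second assay 2 were higher, *IL-23* at 3.03-fold and *TGF-β1* at 2.03-fold, beside 39.8% of all genes. *IL-6* was 2.75-fold lower with the first assay and 2.12-fold lower with the panel median, beside 44.9% and 32.7% of all genes. Against S100A8+vehicle, *STAT3*, a transducer of interleukin-6 signals, was 2.69-fold lower in S100A8+LLC and *TGF-β1* 2.16-fold lower, and both were called under each reference.

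**Figure D4:**
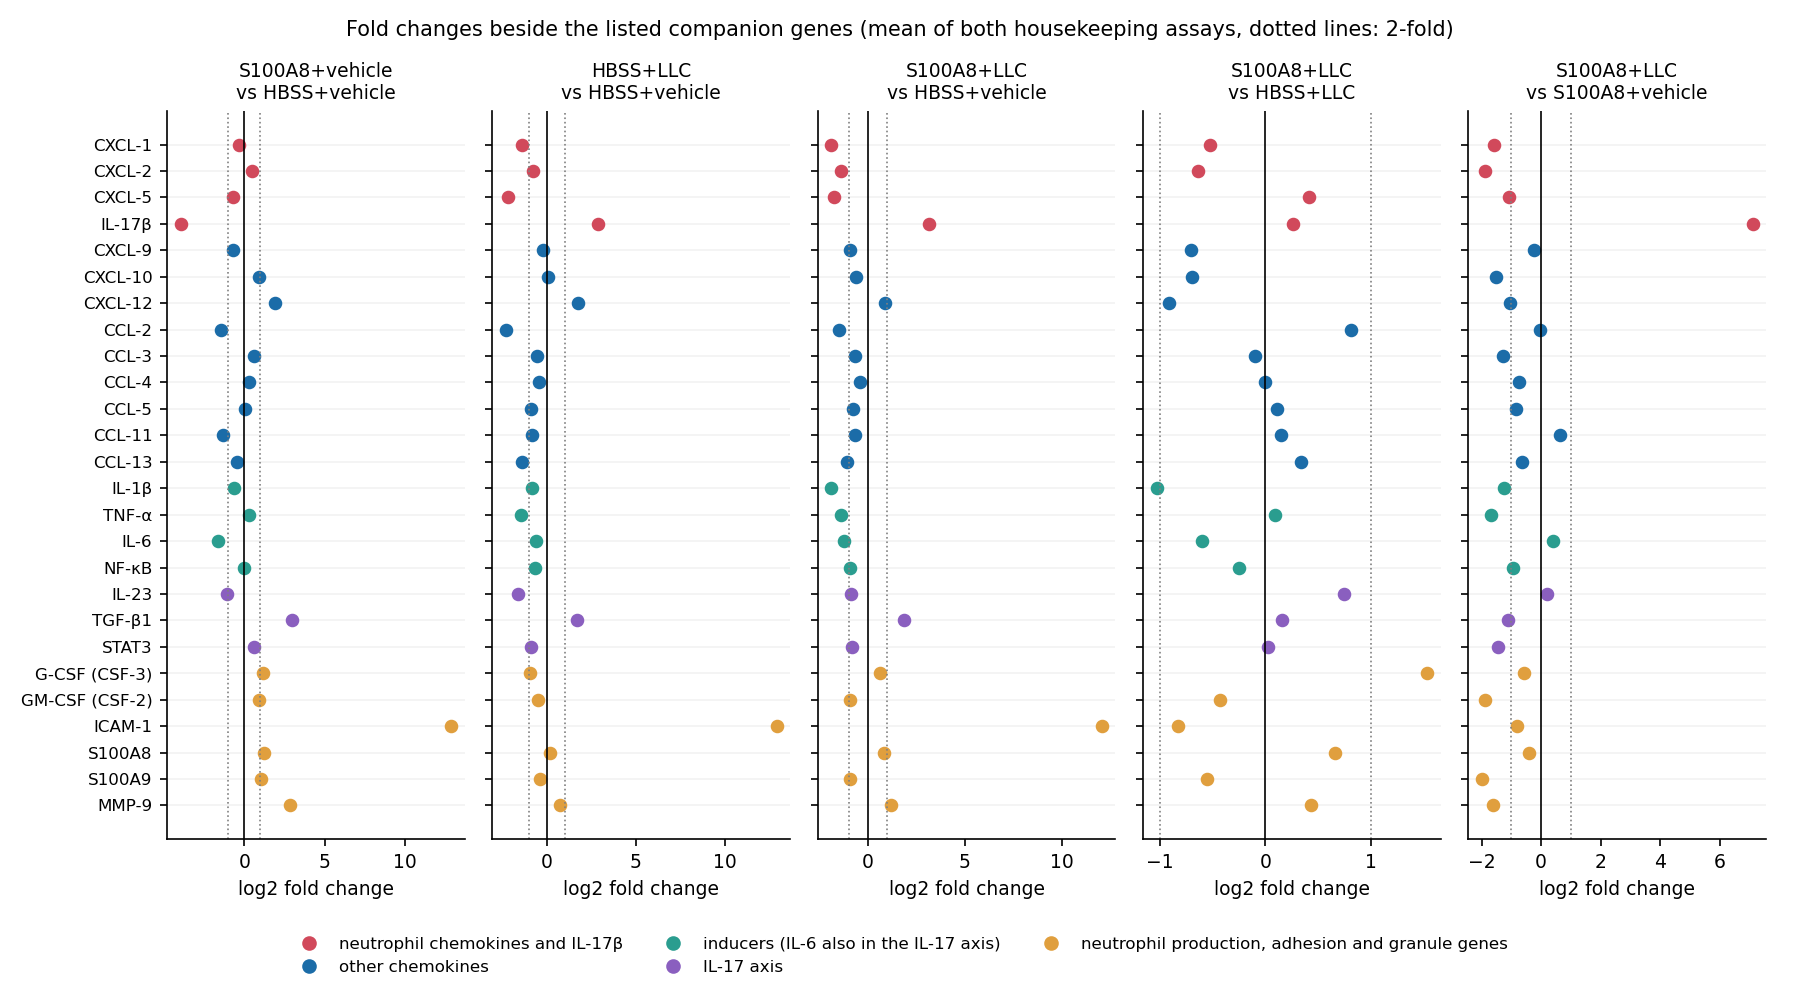
Log2 fold changes of the 4 genes and of the listed companion genes in the 5 comparisons, normalized to the mean of both housekeeping assays, 1 value per point and with its own axis range in each panel. *IL-17β* moves from -3.96 in S100A8+vehicle to 3.14 in S100A8+LLC, and *ICAM-1* lies above 12 on the log2 scale in the 3 comparisons with HBSS+vehicle.

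Neutrophil production, adhesion and granule genes were listed as *G-CSF*, *GM-CSF*, *ICAM-1*, *S100A8*, *S100A9* and *MMP-9*. In S100A8+vehicle, 5 of the 6 were called higher than in HBSS+vehicle, where 27.8% of all genes were. All 6 were called with the first assay alone, beside 49.5% of all genes. With the second assay and with the panel median 2 were, beside 16.5% and 19.6%. *MMP-9*, a protease of neutrophil granules, was 7.06-fold higher there, and at least 4.53-fold under each of the references run. *ICAM-1*, an endothelial and epithelial ligand for neutrophil integrins, was detected at 32.5 cycles in HBSS+vehicle and at 19.2 to 21.4 cycles in the other groups. Its call against HBSS+vehicle, in this and the other groups, thus rests on 1 late averaged value of HBSS+vehicle. *G-CSF* was 2.28-fold, *S100A8* 2.30-fold and *S100A9* 2.08-fold higher, but 1.46-fold, 1.47-fold and 1.34-fold with the second assay. *GM-CSF* was 1.92-fold higher, and 2.99-fold with the first assay. The median of the list was 1.20 on the log2 scale and 0.56 when normalized to the second assay.

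With both treatments, *MMP-9* was 2.28-fold higher than in HBSS+vehicle, and 1.37-fold with the second assay and 1.50-fold with the panel median. *S100A9* was 1.91-fold lower there, and 3.18-fold lower with the second assay. Against HBSS+LLC, *G-CSF* was 2.89-fold higher with both treatments, and 1.59-fold with the first assay, at a mean Ct of 32.0 and 32.2. It was the 1 gene of the 6 called, beside 11.2% of all genes higher. With the first assay 3 were lower, *ICAM-1*, *S100A9* and *GM-CSF*, beside 44.9% of all genes. With the second assay 3 were higher, *G-CSF*, *S100A8* and *MMP-9*, beside 39.8%. With the panel median 1 was higher and 2 lower, beside 8.16% and 32.7%. Compared with S100A8+vehicle, *S100A9* was 3.97-fold, *GM-CSF* 3.68-fold and *MMP-9* 3.10-fold lower in S100A8+LLC, and all 3 were called under each reference. These were 3 of the 6, where 29.6% of all genes were called lower, and *ICAM-1*, *G-CSF* and *S100A8* were 1.75-fold, 1.49-fold and 1.31-fold lower. These are the lungs in which *CXCL-1*, *CXCL-2* and *CXCL-5* were 2.11-fold to 3.68-fold lower.

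Markers of cell types were followed as levels, since whole lung holds many. Normalized to both housekeeping assays and averaged over *S100A8*, *S100A9* and *MMP-9*, which mark neutrophils among other cells, the level relative to HBSS+vehicle was 3.81 after S100A8 alone, where *MMP-9* was the highest of the 3, 1.19 with LLC alone and 1.52 with both. With the first assay these levels were 5.94, 3.61 and 2.54, with the second 2.45, 0.393 and 0.910, and with the panel median 2.82, 1.10 and 0.999. By the mean of both assays, the 3 markers disagreed in LLC-bearing lungs. *S100A9* was at 0.768 with LLC alone and 0.525 with both treatments. *S100A8* was at 1.11 and 1.75 there, and *MMP-9* at 1.69 and 2.28. The other markers are given as log2 fold changes against HBSS+vehicle by the mean of both assays, for S100A8+vehicle, HBSS+LLC and S100A8+LLC in that order. The T cell kinase gene *LCK* was at -1.63, -2.37 and -1.86. Among epithelial markers, *CDH1* was at 5.03, 4.07 and 3.62, *KRT5* at -3.10, -3.11 and -2.22, *KRT14* at 0.01, -1.68 and 2.61, and *MUC1* at 0.58, -0.53 and -0.87. Epithelial markers thus differed in opposite directions in each group, S100A8+vehicle included, where *IL-17β* was 15.6-fold lower. Among endothelial and stromal markers, *COL10A1* was at -2.04, -1.02 and -1.10, *COL11A1* at -1.80, -0.57 and -0.53, *CAV1* at -0.36, 1.47 and 0.59, and *VCAM-1* at -0.58, 0.20 and -0.35. The part of cell composition in the differences of *CXCL-1*, *CXCL-2*, *CXCL-5* and *IL-17β* was not tested.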

How the data were processed

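Total RNA of whole lungs was reverse-transcribed (1.5 µg) and 98 genes and 2 housekeeping genes were measured by SYBR Green RT-qPCR. The methods name a QuantStudio instrument and the labels a LightCycler. The authors deposited 1 mean Ct per assay and group, a score in cycles without normalization, with a cut off of 38 cycles. The deposited fold changes, a ratio of each group to HBSS+vehicle by the authors, served only to identify the numbered assays and columns, because the assays carry no gene names and the study lists the same fold changes by gene and gene class. All 98 genes matched 1 assay each, at all 3 printed fold changes within a relative difference of 0.0001, and the 2 assays left over were taken as housekeeping genes. The fold changes themselves are not reported here.

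Log2 fold changes were computed as the negative difference in Ct between groups, less the difference of the reference, and genes at 38 cycles in both groups got none. Each group is 1 averaged value, so precision cannot be stated and no test was made. The genes and companion lists were chosen with earlier results of these data known. The companion lists are 9 other chemokines, 4 inducers, 4 genes of the interleukin-17 axis and 6 neutrophil genes, and of 26 listed names 25 have a RefSeq symbol, the exception being CCL-13. The text names the 4 genes, the 3 genes nearest to each in pattern, and list members on which a result turns. Alternatives were other references, a cap at 35 cycles, thresholds of 1.5-fold and 3-fold, and limits on mean Ct of 30 and 35 cycles. The functions were tested on simulated data. Python 3.11.15 and matplotlib 3.10.9 were used.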

Additional observations from a re-analysis of the deposited data

How the results depend on the processing

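Each group is a single average of mice, so no spread stands behind any value. No paired analysis was possible because each group has 1 averaged column. Whether any mouse behind the *IL-17β* mean of 35.8 cycles was at the cut off cannot be seen. Of 60 fold changes of the 4 genes recomputed with another reference, 46 stayed on the same side of 2-fold, among them values under 2-fold that turned direction, as given with each comparison above. Log2 values that crossed 2-fold, and the called value that turned, are listed by reference, and the cause was not tested. In S100A8+vehicle against HBSS+vehicle, *CXCL-2* was 1.12 with the first housekeeping assay alone, and *CXCL-5* was -1.31 with the second alone and -1.11 with the panel median. In HBSS+LLC against HBSS+vehicle, *CXCL-1* turned to 0.22 and *CXCL-5* shrank to -0.56 with the first assay, and *CXCL-2* was -2.36 with the second. In S100A8+LLC against HBSS+vehicle, *CXCL-2* was -0.66 with the first assay. Against HBSS+LLC, *CXCL-1* and *CXCL-2* were -1.38 and -1.50 with the first assay and -1.01 and -1.13 with the panel median, while *CXCL-5* and *IL-17β* were 1.27 and 1.12 with the second. In S100A8+LLC against S100A8+vehicle, *CXCL-5* was -0.98 with the first assay.

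Counts of the 4 genes past the threshold that moved by over 1.5 times, or from or to 0, were as follows. The share of all genes called alike is in parentheses for other references and for 1.5-fold. No share is given for 3-fold or for limits on cycles, so those counts cannot be set against all genes. In S100A8+vehicle, 1 was higher with the first assay (49.5% of all genes), 2 were lower with the second (30.9%), with the panel median (25.8%) or at 1.5-fold (24.7%), and 0 were lower with a limit of 30 or 35 cycles, which removes *IL-17β*. In HBSS+LLC, 0 were higher with the limit of 30 cycles, 0 were lower with the first assay (4.08%) and 1 at 3-fold. In S100A8+LLC, 0 were higher than in HBSS+vehicle with the limit of 30 cycles. Against HBSS+LLC, 2 were higher with the second assay (39.8%), 2 lower with the first (44.9%) or the panel median (32.7%) and 1 lower at 1.5-fold (29.6%). Against S100A8+vehicle, 0 were higher with a limit of 30 or 35 cycles and 1 was lower at 3-fold.

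List medians moved likewise, on the log2 scale. With the first assay, they were 1.04 for other chemokines and 1.49 for neutrophil genes in HBSS+LLC, -0.56 for inducers and 1.45 for neutrophil genes in S100A8+LLC against HBSS+vehicle, and for inducers -1.29 against HBSS+LLC and -0.99 against S100A8+vehicle. With the second assay, they were 0.56 for neutrophil genes in S100A8+vehicle. In HBSS+LLC they were -2.16 for other chemokines, -2.37 for inducers, -2.35 for the interleukin-17 axis and -1.72 for neutrophil genes, and in S100A8+LLC against HBSS+vehicle -1.43 for other chemokines and -1.60 for the interleukin-17 axis. With the panel median, neutrophil genes were 0.76 in S100A8+vehicle, and other chemokines -1.30 and the interleukin-17 axis -1.46 in S100A8+LLC against HBSS+vehicle. With a limit of 30 cycles, the interleukin-17 axis was -1.11 against S100A8+vehicle. Counts of called list genes with other references were added after the data were seen, where 48 moved by over 1.5 times and 72 did not.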
